A study of Homo sapiens with 9 samples.

Results

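The 10 genes described are EGR1, EGR2, EGR3, NR4A1, NR4A2, IER2, IER3, IER5, KLF6 and SRF, out of 60651 gene rows measured by RNA sequencing in HCT116, an established cell line of human colorectal cancer. They were chosen by symbol, as immediate early genes of the EGR, NR4A and IER families together with KLF6 and SRF, at a time when earlier results of these data were known. Their levels over the 9 libraries are therefore a description. All 10 passed the filter on low counts, which left 20402 features, 19488 of them genes.

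The labels place the 9 libraries in 3 groups of 3, and every library came from HCT116 cells with wild-type genotype. The shSLC6A3 DMSO group carried a short hairpin RNA aimed at SLC6A3, which encodes the dopamine transporter, and received DMSO, a solvent. The shCTRL VXN group carried a control hairpin and received a treatment that the labels give only as VXN, without dose or time. The shCTRL DMSO group carried the control hairpin and received DMSO. The sources used here do not give the hairpin sequences, the number of clones or the time of harvest. Whether replicates were separate cultures is not stated, and p-values here cover only library-to-library spread, which may be technical.

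The authors also deposited a table for shCTRL V against shCTRL D and a table for shDAT D against shCTRL D, and these do not follow the labels. A DESeq2 rerun gave all 38907 p-values of each table within 1e-06 when shCTRL V was taken as replicate 3 of shCTRL DMSO, replicate 1 of shSLC6A3 DMSO and replicate 3 of shCTRL VXN. In that rerun shDAT D was replicates 1 and 2 of shCTRL DMSO plus replicate 1 of shCTRL VXN, and shCTRL D was replicates 2 and 3 of shSLC6A3 DMSO plus replicate 2 of shCTRL VXN. Libraries are named by their labels here, and the sets of 3 behind the tables are used only to describe the tables. Whether the labels or the tables name the treatments rightly cannot be told from the sources used here, and the labelled fold changes and calls hold only if the labels are right. By a chi-square of counts per degree of freedom, shCTRL DMSO replicate 3 and shSLC6A3 DMSO replicate 1, of different labels, were closest (1.38). Next came shSLC6A3 DMSO replicates 2 and 3 (1.53), which share both a label and a set behind the tables. By the correlation of log2 levels the order of these pairs was reversed (0.9986 and 0.9988). The same-label shCTRL DMSO replicates 2 and 3 were at a chi-square of 353. SLC6A3 itself had 3, 1 and 0 counts in the libraries labelled shSLC6A3 DMSO, 0, 3 and 2 in those labelled shCTRL VXN, and 6, 2 and 2 in those labelled shCTRL DMSO, too few to check the labels by. Total counts ran from 30.25 to 60.22 M per library, where M is 1000000 counts. All 7 epithelial markers, such as EPCAM and KRT8, were above 1 CPM in every library, with a summed level between 4862 and 5588 CPM (counts per 1000000 of the scaled library). Of 12 fibroblast, leukocyte and endothelial markers, 11 stayed below 1 CPM in every library and LUM was at 0 in all 9, while COL1A1 ran from 18.9 to 47.5 CPM.

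Immediate early genes are transcribed within minutes of a growth factor, stress or depolarising signal, without new protein synthesis, and their mRNAs are short-lived. ERK signalling phosphorylates ternary complex factors that sit with SRF on CArG boxes, and CREB adds another input through cyclic AMP response elements. The EGR proteins are zinc finger transcription factors that bind GC-rich sites, and the NR4A proteins are orphan nuclear receptors that act without a known ligand.

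Promoter sequences are shown for 4 members, because the CArG box and the cyclic AMP response element are the textbook elements of this gene class: EGR1 and SRF, whose windows hold CArG boxes, EGR2, whose levels followed those of EGR1, and IER2, whose levels followed them less steeply. RefSeq (GRCh38.p14) gave a promoter window for 7 of the 10 genes, namely EGR1, EGR2, NR4A1, IER2, IER5, KLF6 and SRF. Each run below holds the 250 bases before the RefSeq start, 5′ to 3′ on the gene's strand, with CArG boxes and the word TGACG (on either strand) in capitals. The windows are chr5:138465229-138465478 on the plus strand for EGR1, chr6:43171019-43171268 on the plus strand for SRF, chr10:62819168-62819417 on the minus strand for EGR2 and chr19:13150161-13150410 on the plus strand for IER2.
EGR1: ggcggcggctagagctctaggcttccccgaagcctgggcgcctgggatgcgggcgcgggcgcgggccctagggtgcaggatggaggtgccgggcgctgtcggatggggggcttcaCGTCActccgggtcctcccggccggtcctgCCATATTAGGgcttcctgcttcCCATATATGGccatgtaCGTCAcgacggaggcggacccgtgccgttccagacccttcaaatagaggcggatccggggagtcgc
SRF: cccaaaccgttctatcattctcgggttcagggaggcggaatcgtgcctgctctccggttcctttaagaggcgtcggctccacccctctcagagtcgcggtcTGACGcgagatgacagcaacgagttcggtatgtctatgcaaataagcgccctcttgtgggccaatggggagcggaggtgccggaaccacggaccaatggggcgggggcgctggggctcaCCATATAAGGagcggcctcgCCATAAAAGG
EGR2: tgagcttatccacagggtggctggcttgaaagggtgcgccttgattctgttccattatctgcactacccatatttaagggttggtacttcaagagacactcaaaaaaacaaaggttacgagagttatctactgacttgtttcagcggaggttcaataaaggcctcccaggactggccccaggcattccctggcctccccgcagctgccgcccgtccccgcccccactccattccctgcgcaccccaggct
IER2: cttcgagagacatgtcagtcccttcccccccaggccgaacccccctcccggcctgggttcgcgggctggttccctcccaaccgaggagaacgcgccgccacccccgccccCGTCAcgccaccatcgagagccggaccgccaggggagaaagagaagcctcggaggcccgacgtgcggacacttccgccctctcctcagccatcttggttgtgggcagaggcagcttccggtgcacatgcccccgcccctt
A CArG box (CC, then 6 bases of A or T, then GG) occurred at bases -105 to -96 and -83 to -74 of EGR1 and at -30 to -21 and -10 to -1 of SRF, counted back from the RefSeq start. For SRF that start lies before the annotated gene start at 43171299. The run of bases checked after it also begins before that gene start, so it could not match an annotated SRF transcript. For the other 6 genes with a window the run was found. A CArG box occurred in 2 of the 7 member windows and in 1.16% of 35116 promoter windows of the same length. TGACG, the shorter core of the cyclic AMP response element, occurred in EGR1, IER2 and SRF, against 21.2% of all windows, and the full TGACGTCA occurred in 0 of the 7, against 1.65%. The EGR site GCGNGGGCG occurred in EGR1, KLF6 and SRF, against 8.41% of windows. The NR4A site AAAGGTCA occurred in 0 of the 7 (1.05% of all windows), as did TGANTCA, the AP-1 site (6.57%), and TATAAA (10.7%). CGGAAG, a strict form of the site bound by ETS factors, occurred in IER2, against 16.5% of windows. Shorter forms of the ETS site were not searched, so the other windows may hold them. GGGCGG, the SP and KLF site, occurred in EGR2, IER2, KLF6 and SRF, against 42.6% of windows, and can overlap GCGNGGGCG. All motifs were searched on both strands, and a missing match says only that these letters are not in this window. Only 1 window per gene was searched, although EGR2 has 6 annotated transcripts and NR4A1 has 22. The EGR2 window lies inside the annotated span of the gene, 62811996 to 62919900, and any other start was not searched.

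Of the 10 genes, the 3 EGR genes and NR4A1 differed most between libraries. EGR1 (ENSG00000120738.8, GRCh38 chromosome 5, 138465490 to 138469315, plus strand) is the prototype of the family. It stood at 82.4, 64.3 and 64.3 CPM in shSLC6A3 DMSO replicates 1 to 3, at 607, 883 and 68.7 CPM in shCTRL VXN, and at 936, 901 and 82.0 CPM in shCTRL DMSO. Replicates 1 and 2 of shCTRL VXN and of shCTRL DMSO were high, the other 5 libraries were low, and both pairs of groups overlapped. EGR2 (ENSG00000122877.16, chromosome 10, 62811996 to 62919900, minus strand), which directs myelination and hindbrain patterning in mice, had the same high and low libraries. It stood at 1.43, 0.925 and 0.671 CPM in shSLC6A3 DMSO, at 11.9, 23.8 and 1.31 CPM in shCTRL VXN and at 22.9, 23.9 and 1.19 CPM in shCTRL DMSO. EGR2 had the widest span of the 10 genes, 35.6-fold between its highest and lowest library, and 24 of 14666 genes with a mean of at least 1 CPM had a wider one. EGR3 (ENSG00000179388.9, chromosome 8, 22687659 to 22693302, minus strand), needed for muscle spindles in mice, stood at 4.13, 2.29 and 2.74 CPM in shSLC6A3 DMSO, at 11.7, 18.6 and 4.26 CPM in shCTRL VXN and at 19.7, 18.8 and 3.85 CPM in shCTRL DMSO. Its span was 8.62-fold, against 14.6-fold for EGR1 and a median of 1.63-fold over all 14666 genes.

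The nuclear receptor genes shared the 4 high libraries. NR4A1 (ENSG00000123358.20, chromosome 12, 52022832 to 52059507, plus strand), the receptor also called NUR77, stood at 13.0, 14.2 and 16.1 CPM in shSLC6A3 DMSO, at 152, 223 and 13.8 CPM in shCTRL VXN and at 221, 202 and 14.7 CPM in shCTRL DMSO. Its 5 low libraries lay between 13.0 and 16.1 CPM, and its span over all 9 was 17.1-fold. NR4A2 (ENSG00000153234.15, chromosome 2, 156324432 to 156342348, minus strand), also called NURR1, is required in mice for midbrain dopamine neurons, where it activates the dopamine transporter gene. NR4A2 stood at 16.7, 11.6 and 12.8 CPM in shSLC6A3 DMSO, at 52.6, 68.2 and 15.9 CPM in shCTRL VXN and at 72.7, 72.2 and 16.2 CPM in shCTRL DMSO. Its 6.27-fold span was the smallest of the 5 EGR and NR4A genes. Of the family members outside the set, EGR4 did not exceed 1.56 CPM and NR4A3 did not exceed 2.10 CPM in any library.

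**Figure D1:**
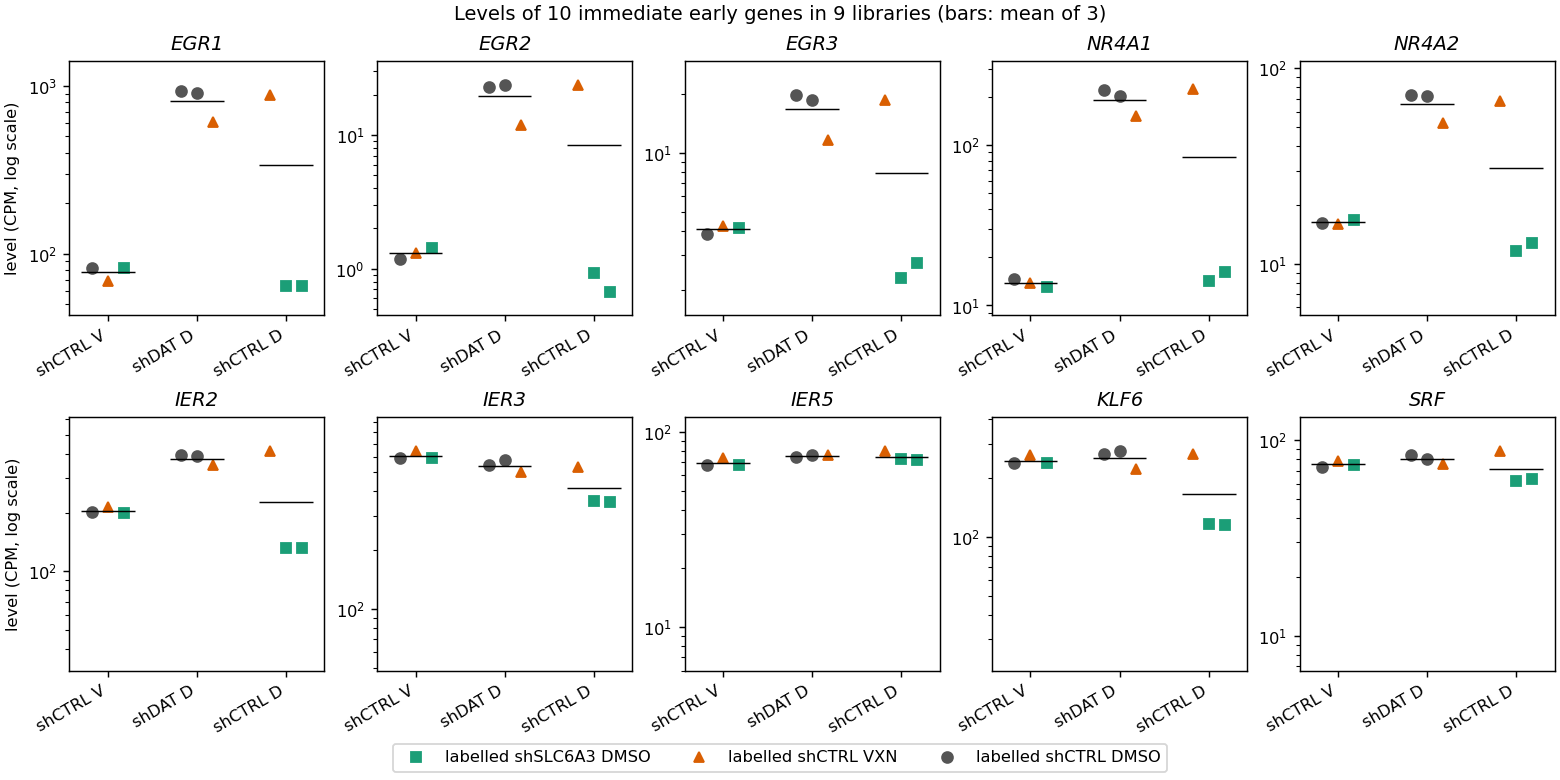
Level of each of the 10 genes (CPM, log scale) in the 9 libraries, arranged by the sets of 3 libraries behind the deposited tables, with the symbol giving the labelled group and the bar the mean of 3. In the shCTRL D set the shCTRL VXN library lies far above both shSLC6A3 DMSO libraries for EGR1 (883 against 64.3 and 64.3 CPM), while IER5 is nearly level across all 9.

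The IER genes differed from each other. IER2 (ENSG00000160888.7, chromosome 19, 13150415 to 13154908, plus strand), a nuclear protein of the early response, stood at 200, 132 and 132 CPM in shSLC6A3 DMSO, at 351, 413 and 213 CPM in shCTRL VXN and at 394, 388 and 202 CPM in shCTRL DMSO. It formed 3 levels: the same 4 libraries were high, shSLC6A3 DMSO replicates 2 and 3 were lowest, and the remaining 3 lay between. IER3 (ENSG00000137331.12, chromosome 6, 30743199 to 30744554, minus strand), a regulator of cell survival also induced by NF-kB, stood at 590, 355 and 352 CPM in shSLC6A3 DMSO, at 502, 534 and 642 CPM in shCTRL VXN and at 542, 580 and 591 CPM in shCTRL DMSO. For IER3 the library labelled shCTRL VXN replicate 3 was the highest and only shSLC6A3 DMSO replicates 2 and 3 were set apart. IER5 (ENSG00000162783.11, chromosome 1, 181088712 to 181092899, plus strand), which takes part in the heat shock response through HSF1, ran from 67.4 to 79.6 CPM over all 9 libraries. That 1.18-fold span was below that of 13912 of the 14666 genes.

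KLF6 and SRF completed the set. KLF6 (ENSG00000067082.15, chromosome 10, 3775996 to 3785281, minus strand), a zinc finger factor with growth-restraining roles, stood at 238, 116 and 115 CPM in shSLC6A3 DMSO, at 222, 266 and 262 CPM in shCTRL VXN and at 266, 275 and 238 CPM in shCTRL DMSO. As for IER3, only shSLC6A3 DMSO replicates 2 and 3 were low, and those 2 libraries were close to each other. SRF (ENSG00000112658.8, chromosome 6, 43171299 to 43181507, plus strand), the factor that binds CArG boxes and thereby serves many immediate early promoters, stood at 74.6, 61.7 and 63.7 CPM in shSLC6A3 DMSO, at 76.0, 88.0 and 77.9 CPM in shCTRL VXN and at 84.2, 80.6 and 73.2 CPM in shCTRL DMSO. SRF had the same lowest libraries as KLF6 within a span of 1.43-fold, which 10167 of 14666 genes exceeded.

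FOS, the best known immediate early gene outside the set, followed the EGR1 libraries more steeply, with 7.39, 4.41 and 4.06 CPM in shSLC6A3 DMSO, 328, 508 and 5.81 CPM in shCTRL VXN and 535, 509 and 7.23 CPM in shCTRL DMSO. MKI67, a marker of dividing cells, split the libraries elsewhere, with 73.7, 571 and 577 CPM in shSLC6A3 DMSO, 519, 587 and 62.2 CPM in shCTRL VXN and 611, 582 and 74.4 CPM in shCTRL DMSO. The 3 libraries low in MKI67 were low in EGR1 too, but shSLC6A3 DMSO replicates 2 and 3 were low in EGR1 and high in MKI67. In bulk RNA, fewer expressing cells and less mRNA per cell cannot be told apart.

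In the labelled comparison of shSLC6A3 DMSO with shCTRL DMSO, all 10 genes were lower on average, but none passed the test across all features. EGR1 averaged 70.3 ± 10.5 CPM in shSLC6A3 DMSO and 640 ± 484 CPM in shCTRL DMSO (SD, n = 3 each). Its log2 fold change was -3.19 (SE 1.05), with an adjusted p of 0.978 by edgeR's quasi-likelihood test with Benjamini-Hochberg adjustment. The other EGR and NR4A genes ran from -3.99 (SE 1.26) for EGR2 through -3.34 (SE 1.13) for NR4A1 and -2.21 (SE 0.70) for EGR3 to -1.97 (SE 0.66) for NR4A2, each with the same adjusted p of 0.978 by edgeR. IER2 was at -1.09 (SE 0.34) and KLF6 at -0.73 (SE 0.27), also with an adjusted p of 0.978 by edgeR. They were the 2 members whose groups did not overlap: the highest shSLC6A3 DMSO library had 200 CPM of IER2 and 237.6 CPM of KLF6, and the lowest shCTRL DMSO library had 202 CPM of IER2 and 238.1 CPM of KLF6. Such gaps in the lower direction occurred in 4.81% of the 20402 features, and gaps in either direction in 8.83%. IER3 was at -0.40 (SE 0.21), SRF at -0.25 (SE 0.11) and IER5 at -0.05 (SE 0.09), and edgeR's adjusted p was 0.978 or above for each.

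The number of members called at an adjusted p below 0.05 was 0 of 10 by edgeR, where 0% of the 20402 features were called in this comparison, and 0 by DESeq2. At an unadjusted p below 0.05, 7 of the 10 were lower, against 629 features lower (3.08%) and 930 in either direction (4.56%). The median log2 fold change of the members was -1.53, beside -0.01 over all features. The members were chosen with earlier results known, and most share their high and low libraries. These values are therefore a description and not separate results for each gene. Within shCTRL DMSO, replicate 3 was set apart, which stood at 82.0 CPM of EGR1 beside 936 and 901 CPM. Leaving out 1 library at a time gave EGR1 values between -3.71 and -2.81, and no member was called.

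In the labelled comparison of shCTRL VXN with shCTRL DMSO, the 10 genes lay between -0.37 (EGR2) and 0.07 (IER5) on the log2 scale. EGR1 averaged 520 ± 414 CPM in shCTRL VXN and 640 ± 484 CPM in shCTRL DMSO (SD, n = 3 each), with a log2 fold change of -0.30 (SE 0.97). NR4A1 averaged 130 ± 106 CPM in shCTRL VXN and 146 ± 114 CPM in shCTRL DMSO (SD, n = 3 each). All adjusted p-values of the members were 1 by edgeR's quasi-likelihood test. Of the members, 0 of 10 were called by edgeR and 0 by DESeq2, beside 0.0098% of features, and 0 had groups that did not overlap, beside 6.35%. At an unadjusted p below 0.05 there were 0 members and 384 features (1.88%). In these fits without pairing, the directions of EGR1, EGR2, EGR3, NR4A1, NR4A2, IER2, IER3, KLF6 and SRF each turned when some single library was left out, as EGR1 did, to 0.22 without shCTRL VXN replicate 3.

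Same-numbered libraries of shCTRL VXN and shCTRL DMSO deviated together, so this comparison was also fitted on its 6 libraries with the replicate number as a block, an alternative chosen after seeing the data. By chi-square per degree of freedom, however, shCTRL DMSO replicate 2 was nearer to shCTRL VXN replicate 1 (8.8) than to replicate 2 (12.6). For shCTRL DMSO replicate 1 these values were 10.6 and 10.9. These chi-squares may also depend on depth, which was 30.25 M in shCTRL VXN replicate 1 and 53.47 M in replicate 2. Replicate 3 was set apart in both groups, so the shared deviations do not show how replicates 1 and 2 pair. The pairing of replicates 1 and 2 is therefore uncertain, and the block p-values hold only if the numbers pair the libraries. EGR1 was lower in 3 of 3 pairs, by log2 differences of CPM + 0.5 of -0.63, -0.03 and -0.25, and its log2 fold change was -0.30 (SE 0.08, unadjusted p = 0.00108, adjusted p = 0.0718 by edgeR with the replicate block). NR4A2 was lower in 3 of 3 pairs as well, at -0.21 (SE 0.07, adjusted p = 0.192 by edgeR with the replicate block), and EGR2 was lower in 2 of 3 pairs, at -0.37 (SE 0.14, adjusted p = 0.217 by edgeR with the replicate block). IER5 was higher in 3 of 3 pairs, at 0.07 (SE 0.05, adjusted p = 0.599 by edgeR with the replicate block). The remaining members had pairs in both directions. Among all 20402 features, 17.4% were lower and 18% higher in all 3 pairs. With the block 0 of 10 members were called, beside 119 features higher and 86 lower (1.04% of 19769), and 3 members (EGR1, EGR2 and NR4A2) had an unadjusted p below 0.05, beside 14.3% of features.

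**Figure D2:**
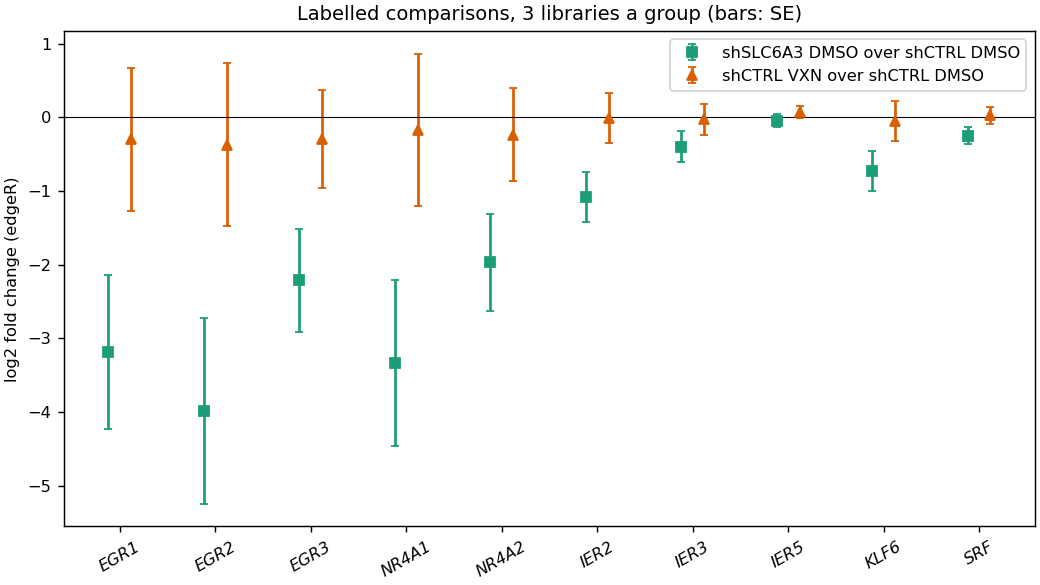
Log2 fold change of each gene from edgeR (points) with its SE (bars) for shSLC6A3 DMSO over shCTRL DMSO and shCTRL VXN over shCTRL DMSO, 3 libraries a group. The EGR and NR4A genes are the lowest in the first comparison, down to -3.99 for EGR2, and all points of the second lie between -0.37 and 0.07.

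In the comparison the authors named shCTRL V against shCTRL D, IER3 was higher and NR4A1 lower. The authors' deposited table gave IER3 a log2 fold change of 0.51 (SE 0.14, adjusted p = 0.000363 from DESeq2), and the 3 shCTRL V libraries had 590, 591 and 642 CPM against 352, 355 and 534 CPM in the shCTRL D libraries. NR4A1 was at -1.58 (SE 1.40, adjusted p = 0.0183 from DESeq2) in the authors' deposited table, with 13.0, 13.8 and 14.7 CPM in shCTRL V libraries against 14.2, 16.1 and 223 CPM in shCTRL D libraries. For NR4A1 the shCTRL D libraries labelled shSLC6A3 DMSO lay near shCTRL V, and the one labelled shCTRL VXN replicate 2 lay far above. The authors' deposited table held an adjusted p for 7 of the 10 members, and it called 1 higher and 1 lower, where 44% of 24274 features were called, 21.4% higher and 22.7% lower. The other 5 with an adjusted p in the authors' deposited table ran from -0.41 (SE 0.52) for NR4A2 to 0.43 (SE 0.30) for KLF6. IER3 was the 1 member whose libraries did not overlap, beside 60.4% of features with such a gap and 31.6% with one in the higher direction. In the same table the cycling markers were lower, 6 of 6, with a median of -2.60 in the authors' deposited table, and their summed level was 287 to 343 CPM in shCTRL V libraries and 1899 to 2031 CPM in shCTRL D libraries. Their part in the members' values was not tested.

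EGR1, EGR2 and EGR3 have no p-value in either of the authors' deposited tables, and the table for shCTRL V gave log2 fold changes of -0.71 (SE 1.04), -0.52 (SE 0.89) and -0.32 (SE 0.52). DESeq2 withholds a p-value when 1 library's Cook's distance, its pull on the fitted value, passes a limit, which was 9.78 in the rerun. The distance reached 16.2 for EGR1, 19.4 for EGR2 and 10.7 for EGR3, each time in shCTRL VXN replicate 2. That library also gave the highest distance for NR4A1 (7.72), NR4A2 (8.76), IER2 (4.09), KLF6 (2.13), IER3 (0.458) and SRF (0.291), all under the limit. With the limit lifted, an alternative chosen after seeing the data, the rerun gave adjusted p-values from DESeq2 of 0.0656 for EGR1, 0.0602 for EGR2 and 0.371 for EGR3. IER5 was the exception, with its highest distance of 0.0225 in shCTRL VXN replicate 3.

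In the comparison the authors named shDAT D against shCTRL D, the deposited fold changes of the EGR and NR4A genes were near 0 although their CPM differed widely between libraries. EGR1 was at 0.01 in the authors' deposited table, with 607, 901 and 936 CPM in shDAT D libraries and 64.3, 64.3 and 883 CPM in shCTRL D libraries. Deposited values are shrunken, which pulls an uncertain fold change towards 0, and on the same libraries without shrinkage EGR1 was at 1.27 on the log2 scale. Of the 7 members with an adjusted p in the authors' deposited table, 0 were called, where 6.62% of 10403 features were (1% higher and 5.62% lower), and IER3 came nearest at 0.25 (SE 0.16, adjusted p = 0.0673 from DESeq2). No member had libraries that did not overlap, beside 18.8% of features, and in all 10 genes shCTRL VXN replicate 2 lay above the lowest shDAT D library. The 2 tables share their shCTRL D libraries, so their values for the members are not independent of each other.

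Leaving out the single library shCTRL VXN replicate 2 moved most members in both tables. Within the shCTRL D set it stood 13.7-fold above the mean of the other 2 for EGR1, 29.9-fold for EGR2, 14.7-fold for NR4A1, 7.40-fold for EGR3, 5.59-fold for NR4A2 and 3.13-fold for IER2. For KLF6 this ratio was 2.30, for IER3 1.51, for SRF 1.40 and for IER5 1.11, and for MKI67 it was 1.02. The departure was not limited to these genes. By chi-square of counts per degree of freedom, shCTRL VXN replicate 2 was at 91.4 and 97.5 from the other shCTRL D libraries. The same library was at 10.9, 12.6 and 15 from the shDAT D libraries. In a DESeq2 rerun without it, the shDAT D over shCTRL D values were 3.62 (SE 0.20) for EGR1, 4.57 (SE 0.38) for EGR2, 2.70 (SE 0.19) for EGR3, 3.62 (SE 0.18) for NR4A1 and 2.40 (SE 0.12) for NR4A2. IER2 was at 1.48 (SE 0.06), KLF6 at 1.10 (SE 0.08), IER3 at 0.58 (SE 0.06) and SRF at 0.32 (SE 0.06), and 9 of the 10 members were then called higher. In that rerun 34.9% of 22454 features were called, 13.8% higher and 21.1% lower. The rerun sets 3 libraries against 2, and which library to leave out was seen from the values, so these counts are a description.

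Without that library, shCTRL V over shCTRL D changed too. NR4A1 was at -0.17 (SE 0.18) and EGR1 at 0.23 (SE 0.20), while IER3 was at 0.74 (SE 0.06) and KLF6 at 1.05 (SE 0.08), and 6 members were called higher and 0 lower, beside 45.3% of features called, 22.1% higher and 23.1% lower. The NR4A1 call was also lost, with adjusted p-values from DESeq2 of 0.0633, 0.0841 and 0.0681, without shCTRL DMSO replicate 3, shSLC6A3 DMSO replicate 1 or shCTRL VXN replicate 3. Without shCTRL DMSO replicate 1 or 2 or shCTRL VXN replicate 1, which are outside that comparison, NR4A1 had no adjusted p. IER3 stayed called higher without each of the 9 libraries in turn, between 0.44 and 0.74. Without shSLC6A3 DMSO replicate 2 or 3, 3 members were called lower, beside 21% and 20.9% of all features called lower in those reruns.

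**Figure D3:**
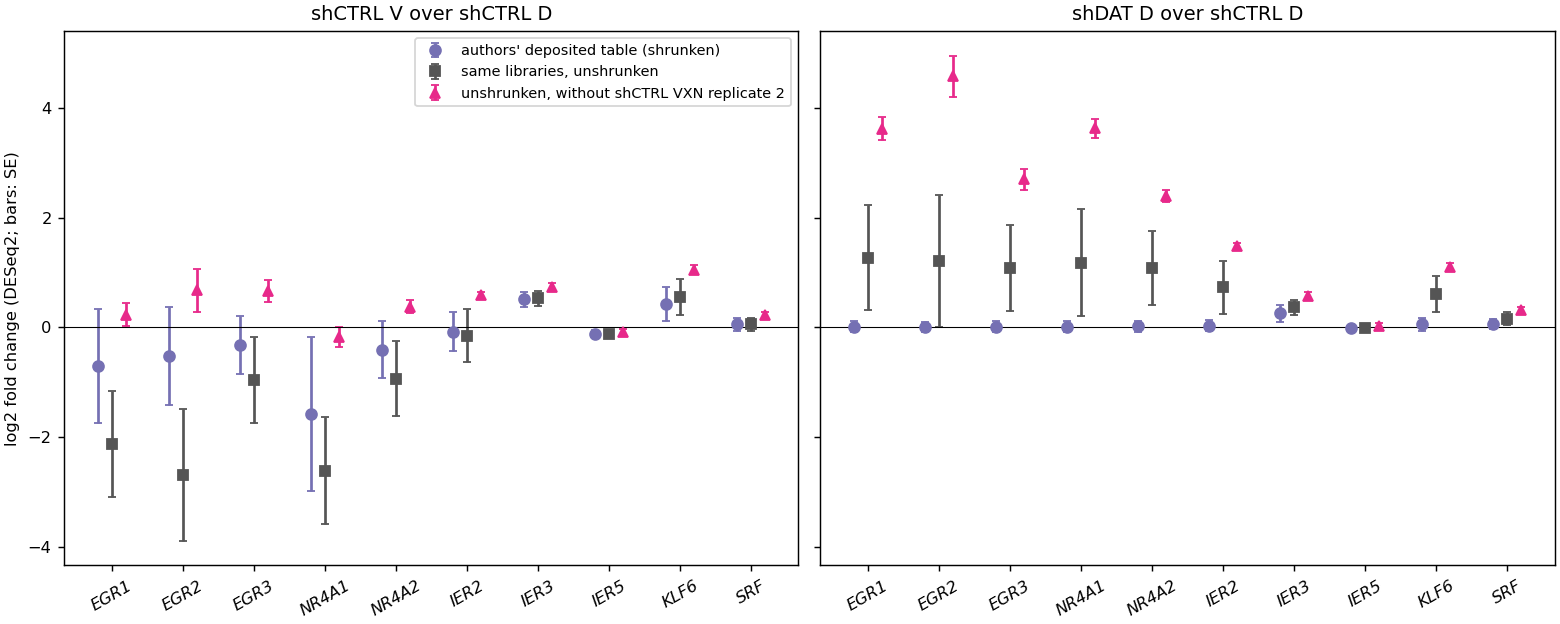
Log2 fold change of each gene (points) with its SE (bars) for shCTRL V over shCTRL D and shDAT D over shCTRL D, as deposited by the authors, on the same libraries without shrinkage, and without shCTRL VXN replicate 2. For EGR1 in shDAT D over shCTRL D the 3 values are 0.01, 1.27 and 3.62.

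The members fell into subsets by the direction and size of their deviations over the 9 libraries. Patterns were compared by the root mean square difference of log2(CPM + 0.5) after centring each gene. The 9 libraries partly share their group, so the values are a description. This difference was not scaled by span, so genes with small spans lie close whatever their pattern. EGR3 and NR4A2 were the closest pair, at 0.114, followed by IER5 and SRF at 0.135 and EGR1 and EGR2 at 0.198. IER5 and SRF were both nearly flat. In shSLC6A3 DMSO replicates 2 and 3, SRF deviated by -0.28 and -0.24 and IER5 by -0.02 and -0.03. EGR1 and NR4A1 were at 0.210. EGR1 and EGR3, of the same family, were at 0.685, although both were high in the same libraries. For NR4A1, shSLC6A3 DMSO replicates 2 and 3 lay among or above the other low libraries. For EGR1, EGR2, EGR3, NR4A2 and IER2 they lay below all of them. In KLF6, IER3 and SRF those 2 libraries alone stood low.

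Among 13427 candidate genes, the closest to EGR1 were EGR2, NR4A1 and CCN1, a secreted matrix protein and SRF target, at 0.303. CCN1 was closest of all to NR4A1, at 0.184, with 13.2, 14.3 and 14.5 CPM in shSLC6A3 DMSO, 166, 215 and 9.61 CPM in shCTRL VXN and 221, 226 and 13.3 CPM in shCTRL DMSO. The closest to EGR3 after NR4A2 were DUSP1, a phosphatase that switches off MAP kinases, at 0.189 and DEPP1 at 0.228. DEPP1 was at 0.160 and DUSP1 at 0.235 from NR4A2. For IER2 they were CSRNP1, itself an early response gene, at 0.104, BDKRB2 at 0.118 and ARRDC4 at 0.123, and for KLF6 they were KLF2, a relative, at 0.074, VWA7 at 0.103 and BNIP3L at 0.108. KLF2 stood at 85.8, 37.3 and 37.9 CPM in shSLC6A3 DMSO, 67.7, 89.7 and 84.3 CPM in shCTRL VXN and 83.9, 88.2 and 84.1 CPM in shCTRL DMSO. For IER3 the closest were KLF8, SH3BP5-AS1 and THSD4, for SRF they were KIAA1109, NISCH and OSBPL5, and for IER5 RMND5A, ZNF445 and UNC45A, all within 0.061. IER3, SRF and IER5 had the smallest spans of the members, and these small values may partly reflect that.

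**Figure D4:**
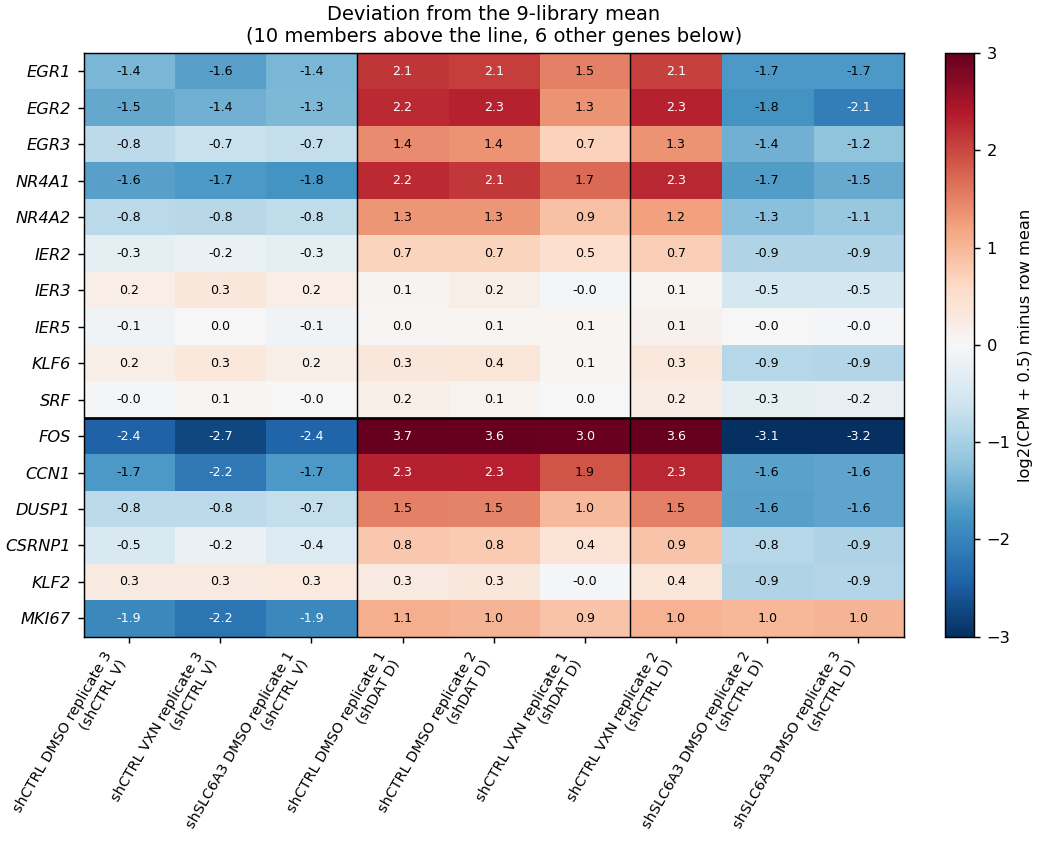
Deviation of log2(CPM + 0.5) from the mean of the 9 libraries for the 10 members and 6 other genes, with libraries ordered by the sets behind the deposited tables. The 4 columns of shCTRL DMSO replicates 1 and 2 and shCTRL VXN replicates 1 and 2 are high in the EGR and NR4A rows, as in the FOS, CCN1 and DUSP1 rows, and the MKI67 row divides the columns elsewhere.

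Per length of exon, IER3 was the most abundant member and EGR2 the least. Length here is the union of exons over all annotated transcripts of a gene. For NR4A1 this union is 7295 bases against 2678 in the principal transcript, and for NR4A2 it is 3967 against 3472. The order of NR4A1 and NR4A2 therefore depends on the length used. Taking each gene's median over the 9 libraries in CPM per kb of exon, IER3 stood at 400.0, followed by IER2 at 69.3, KLF6 at 38.8, EGR1 at 26.3, SRF at 18.1, IER5 at 17.5, NR4A2 at 4.22, NR4A1 at 2.20, EGR3 at 0.877 and EGR2 at 0.389. IER3, at 259 CPM per kb or more, was set apart from IER2, at 134 CPM per kb or less, and every other pair of neighbours in this order had ranges that overlapped. SRF ran from 14.7 to 20.9 and IER5 from 16.1 to 19.0 CPM per kb. In shCTRL DMSO replicate 1 EGR1 reached 298 CPM per kb, above the lowest value of IER3. Short genes were common among the members: 6 of 10 spanned at most 10 kb, against 18.2% of 12619 protein-coding genes with a mean of at least 1 CPM, whose median span was 33378 bases with 9 exons. IER2 and IER5 had 1 exon in their principal transcript and EGR1, EGR2, EGR3 and IER3 had 2.

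**Figure D5:**
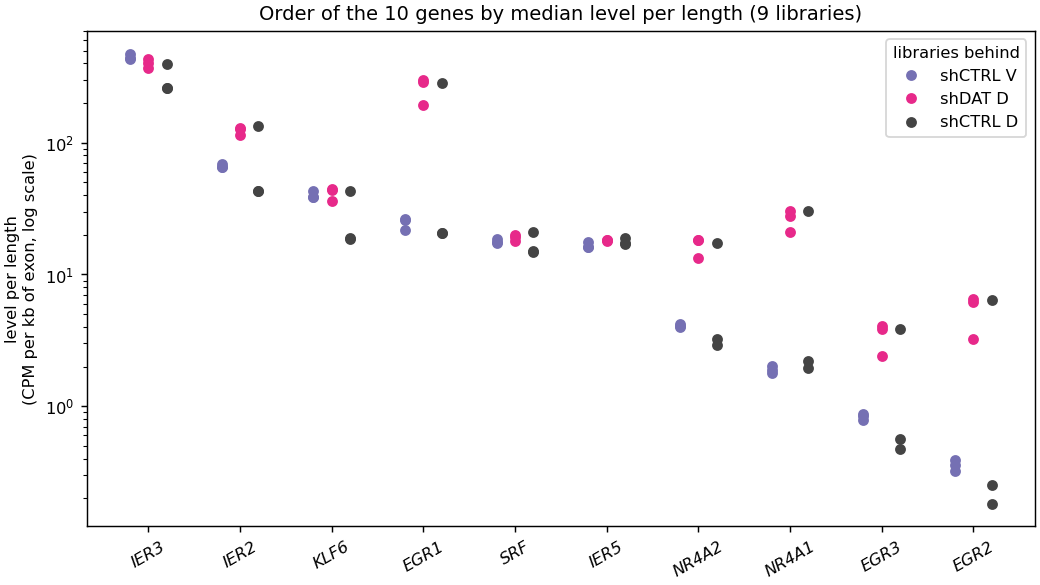
Level per length (CPM per kb of exon, log scale) of each gene in the 9 libraries, with genes ordered by their median and colours for the sets behind the deposited tables. IER3 has the highest median, at 400.0, and EGR2 the lowest, at 0.389.

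Counts of overlapping genes are uncertain, since the kit does not mark strand and no source used here gives the counting rule. Exons of IER2 overlap those of AC011446.2 on the opposite strand, which had 1108 counts over the 9 libraries. The opposite-strand partners of EGR3, IER3 and NR4A1 had 19, 162 and 43 counts. Reads of such partners cannot be told apart.

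Relatives and partners of the members were described by lists that were also chosen with earlier results known. In the labelled comparisons without pairing 0 genes of any list were called, beside the 0% and 0.0098% of features above. With the replicate block, 2 of the 24 other immediate early genes were called lower in shCTRL VXN, beside 0.435% of all features. They were PPP1R15A at -0.39 (SE 0.06, adjusted p = 0.00404) and CCN1 at -0.29 (SE 0.07, adjusted p = 0.0469), by edgeR with the replicate block. In the other lists 0 genes were called. Those 2 genes were named after their values were seen. Among 12 relatives outside the set, the authors' deposited table for shCTRL V called 6 higher and 0 lower, with a median of 0.46, led by KLF3 at 0.67 (SE 0.08), KLF13 at 0.65 (SE 0.09), KLF9 at 0.47 (SE 0.07) and KLF7 at 0.82 (SE 0.14). The summed level of the 12 relatives ran from 965 to 1044 CPM in shCTRL V libraries and from 645 to 940 CPM in shCTRL D libraries. Of 24 other immediate early genes, 20 had an adjusted p in the authors' deposited table, 6 higher and 4 lower, with MAFF at 0.99 (SE 0.15), RHOB at 0.96 (SE 0.13), MYC at -0.82 (SE 0.08) and SGK1 at -0.83 (SE 0.21).

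The regulators of these genes had calls in both directions in the authors' deposited table for shCTRL V. Of 11 SRF and CREB regulators, 5 were higher and 1 lower there, with CREM, a cyclic AMP responsive factor, at 0.77 (SE 0.15), the ternary complex factor ELK4 at 0.26 (SE 0.06) and the SRF coactivators MRTFA at 0.26 (SE 0.07) and MRTFB at -0.21 (SE 0.06) in the authors' deposited table. NAB1, a co-repressor that binds EGR proteins, was at -0.20 (SE 0.07, adjusted p = 0.00666) and NAB2 at -0.10 (SE 0.08, adjusted p = 0.341), by DESeq2 values of the authors' deposited table. Of 11 ERK pathway kinases, the authors' deposited table called 4 higher and 3 lower, including MAPK7 at 0.50 (SE 0.10). Among 12 cytoskeletal SRF targets, the authors' deposited table had 6 higher and 3 lower, with FHL2 at 0.64 (SE 0.11) and TAGLN2 at -1.25 (SE 0.07). Of 9 genes of mRNA decay, the authors' deposited table called 2 higher and 4 lower, with HNRNPD, which binds AU-rich elements, at -1.30 (SE 0.11), ELAVL1, which stabilises such mRNAs, at -0.74 (SE 0.09) and ZFP36L2, which destabilises them, at -1.04 (SE 0.15). These shares stand beside the 44% of features called in that table. In the DESeq2 rerun without shCTRL VXN replicate 2, 10 of the 12 relatives were higher and 0 lower, and of the 24 other immediate early genes 16 rose and 4 fell. With shSLC6A3 DMSO replicate 2 or 3 left out instead, 3 of those 24 rose and 9 fell, beside 19.1% or 19.3% of all features higher and 21% or 20.9% lower. The rerun lacking shCTRL VXN replicate 2 also had 4 of the 9 genes of mRNA decay higher and 5 lower, 4 of the 11 ERK pathway kinases higher and 5 lower, and 6 of the 12 cytoskeletal SRF targets higher and 5 lower, beside 22.1% of all features higher and 23.1% lower. The NAB1 call was lost without any 1 of the shSLC6A3 DMSO libraries.

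For shDAT D, the calls of the authors' deposited table within these lists were 1 gene each for 2 lists and 0 for the others. CCNL1, a cyclin of splicing regulation among the other immediate early genes, was at 0.26 (adjusted p = 0.0383 from DESeq2), and FLNA, an actin crosslinker among the cytoskeletal SRF targets, at -0.19 (adjusted p = 0.0193 from DESeq2), in the authors' deposited table. Both calls were lost without any 1 library other than shCTRL VXN replicates 2 and 3. In the rerun lacking shCTRL VXN replicate 2, 23 of the 24 other immediate early genes rose and 1 fell, and 10 of the 12 relatives rose and 0 fell. Of the 12 cytoskeletal SRF targets 2 rose and 7 fell there, of the 11 SRF and CREB regulators 1 rose and 5 fell, of the 11 ERK pathway kinases 1 rose and 4 fell, and of the 9 genes of mRNA decay 4 rose and 4 fell. In that rerun 13.8% of all features were higher and 21.1% lower.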

How the data were processed

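RNA was extracted as total RNA, libraries were made with a TruSeq RNA v2 kit, and the platform was a NextSeq, per the labels' protocols. The submitters' processing notes name fastp 0.20.1, FastQC 0.11.9, STAR, DESeq2 1.34.0 and GRCh38, and neither the counting program nor its annotation is given in the sources used here. Raw counts per gene and repeat make up the authors' deposited count table. Shrunken log2 fold changes and p-values were computed by the authors with DESeq2. The base mean deposited by the authors is a signal of normalised counts. The number of per-sample columns that matched no label was 0. The title of the third shCTRL VXN library spells the treatment VNN; its treatment label was used.

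Labelled groups were compared in a single edgeR 4.0.16 quasi-likelihood fit over all 9 libraries (R 4.3.3, TMM scaling, filter on low counts, Benjamini-Hochberg adjustment over 20402 features). DESeq2 1.42.0 was the alternative. CPM used TMM-scaled library sizes. The authors' tables were rerun with DESeq2 on the matching libraries. Deviations from the group means of same-numbered shCTRL VXN and shCTRL DMSO libraries correlated at 0.875 to 0.963 over 3 pairs, and a replicate block was fitted to these 6 libraries. The pairing comes from the numbers in the sample titles and these correlations. Replicate 3 was set apart in both groups, so the correlations do not show how replicates 1 and 2 pair. Chi-squares of counts did not favour it for replicates 1 and 2. Promoter windows came from RefSeq (GRCh38.p14) and gene models from GENCODE v29. Named genes were all 10 members, up to 4 genes per list by the smallest adjusted p for shCTRL V among those with a base mean of at least 10, and the 3 genes most like each member; others, such as FOS, MKI67, EGR4, NR4A3, CCNL1 and FLNA, were named after their values were seen. The members and lists were chosen with earlier results of these data known.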

Additional observations from a re-analysis of the deposited data

How the results depend on the processing

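The members' levels kept their order of span under CPM on library totals and under DESeq2 size factors. For shSLC6A3 DMSO against shCTRL DMSO, every member kept its direction and missed the threshold under DESeq2, size factors, no filter, genes only, the 6 libraries alone and each left-out library; the number of features lower ran from 0 to 9 over the left-out libraries. For shCTRL VXN against shCTRL DMSO, DESeq2 called 10 features higher and 10 lower, and 0 were lower with no filter, with the 6 libraries alone and with any library left out. Leaving out 1 library at a time, log2 fold changes in that comparison without the block ran from -0.92 to 0.22 for EGR1, from -1.28 to 0.16 for EGR2, from -0.83 to 0.10 for EGR3, from -0.81 to 0.36 for NR4A1, from -0.67 to 0.17 for NR4A2, from -0.27 to 0.22 for IER2, from -0.14 to 0.043 for IER3, from -0.11 to 0.023 for KLF6 and from -0.044 to 0.068 for SRF, and each of these 9 changed direction. With the replicate block over all 9 libraries 0 features were called in both labelled comparisons, and IER2 turned to 0.00295 in the VXN comparison. That block includes shSLC6A3 DMSO, whose numbers did not pair with those of the other groups (correlations from -0.841 to 0.838). On the 6 libraries of the VXN comparison with the replicate block, 119 features were called higher and 86 lower, and 0 members. For shDAT D against shCTRL D, edgeR on the same libraries called 0 features higher and 0 lower, and a DESeq2 rerun without independent filtering called 2 higher and 7 lower, beside 104 and 585 in the authors' deposited table. Over the left-out libraries that comparison gave 0 to 3103 features higher, 0 to 4727 lower and 0 to 9 members higher, the highest counts all without shCTRL VXN replicate 2. For shCTRL V against shCTRL D, members higher ran from 1 to 6 and members lower from 0 to 3. The cause of these changes was not tested. The limit on Cook's distance was lifted as an alternative chosen after seeing the data, and all unshrunken values differ from the deposited ones by construction. Depth limits EGR2 most, with 35 counts in its lowest library.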
